A study of Mus musculus with 6 samples.

Results

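The centromere-side ends of the 19 mouse autosomes were examined in MBD-seq peak lists of whole lung. MBD-seq captures methylated DNA fragments with a methyl-CpG-binding protein, and a peak marks a place where captured fragments were enriched. A peak belonged to an end when it lay on chromosomes 1 to 19 and started below position 6000000 of the mouse build mm10. The assembled sequence of these chromosomes starts at about 3 Mb, so each end is a window of 3 Mb and the 19 ends together hold 57 Mb. The 6 lists held 12501 such peaks of 517635 peaks in all. They were 2815, 2734 and 1940 peaks in transgenic replicates 1, 2 and 3, and 1493, 2683 and 836 peaks in wild-type replicates 1, 2 and 3. Merged over the lists where peaks shared or touched a base, they made 3759 of 166001 regions. The earliest peak in each end started between positions 3001242 (chromosome 7) and 3109257 (chromosome 10).

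The 6 libraries came from the lungs of separate mice aged 12 to 16 months. The 3 transgenic mice carried SPC-DNMTdelta3B/DG, a deletion variant of the de novo DNA methyltransferase DNMT3B driven by the SPC (surfactant protein C) promoter, which is active in alveolar type 2 cells. The 3 wild-type mice were age matched. The transgene has several founder lines, and the labels do not tell which line each animal came from. For transgenic replicate 2 the genotype reads SPC-DNMTdeltaB/DG, and its group was taken from its title. DNA of the whole lung was used, so more cells with a methylated site and more methylation per cell cannot be told apart, and peak lists of DNA hold no expression of lung markers to check the tissue against. Read depth is unknown, and the lists ran from 30640 peaks (wild-type replicate 3) to 120349 peaks (transgenic replicate 1).

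Mouse autosomes are telocentric: the centromere sits at the very end of the chromosome, next to long arrays of satellite repeats that are heavily methylated and packed as heterochromatin. DNMT3B is known for methylating these satellite arrays, and its loss leaves them undermethylated. The arrays themselves are not part of the assembled chromosomes, so what the lists show here is the first unique and semi-repetitive sequence beside them. Within such sequence, most CpG-rich promoters are free of methylation, while gene bodies and the sequence between genes are largely methylated.

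Promoters, which run from 250 bases before to 50 bases after a transcription start, show what was and was not captured in the ends. The sequences are those of RefSeq on GRCm38.p6, the assembly of mm10, each 300 bases long, written 5′ to 3′ along the gene's strand with every CpG in capitals. Of 872 promoters in the ends, 3 overlapped a peak in all 6 lists (0.344%, against 0.436% of 30493 elsewhere), and these are printed first. They belong to Gm42064 (chr19:5307054-5307353, minus strand), Eps8l1 (chr7:4460447-4460746, plus strand) and LOC115490388 (chr6:3182866-3183165, plus strand).
Gm42064: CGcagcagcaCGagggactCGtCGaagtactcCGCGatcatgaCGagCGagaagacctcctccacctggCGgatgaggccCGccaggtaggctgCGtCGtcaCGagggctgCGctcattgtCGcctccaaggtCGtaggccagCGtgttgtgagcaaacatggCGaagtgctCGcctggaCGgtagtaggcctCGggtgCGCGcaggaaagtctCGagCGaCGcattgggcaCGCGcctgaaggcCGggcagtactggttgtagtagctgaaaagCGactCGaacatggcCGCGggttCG
Eps8l1: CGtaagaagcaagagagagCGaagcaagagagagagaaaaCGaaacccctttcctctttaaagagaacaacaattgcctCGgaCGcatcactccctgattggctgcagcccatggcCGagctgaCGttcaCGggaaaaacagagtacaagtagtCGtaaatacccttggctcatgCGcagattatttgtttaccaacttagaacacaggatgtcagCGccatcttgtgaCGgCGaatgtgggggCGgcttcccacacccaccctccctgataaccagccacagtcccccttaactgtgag
LOC115490388: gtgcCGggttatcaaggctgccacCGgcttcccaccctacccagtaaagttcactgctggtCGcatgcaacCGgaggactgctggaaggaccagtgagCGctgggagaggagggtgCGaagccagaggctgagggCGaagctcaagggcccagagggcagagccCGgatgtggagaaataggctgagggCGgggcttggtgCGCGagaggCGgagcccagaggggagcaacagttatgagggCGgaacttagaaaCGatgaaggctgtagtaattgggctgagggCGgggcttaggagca
For contrast, 3 promoters of the ends without a peak in any list follow, picked after their values were seen. They are the promoter with most CpGs of Dnmt3a (chr12:3806910-3807209, plus strand), the sister enzyme of DNMT3B, that of Kat5 (chr19:5609695-5609994, minus strand), a histone acetyltransferase gene, and that of Pirb (chr7:3720333-3720632, minus strand), an inhibitory immune receptor gene.
Dnmt3a: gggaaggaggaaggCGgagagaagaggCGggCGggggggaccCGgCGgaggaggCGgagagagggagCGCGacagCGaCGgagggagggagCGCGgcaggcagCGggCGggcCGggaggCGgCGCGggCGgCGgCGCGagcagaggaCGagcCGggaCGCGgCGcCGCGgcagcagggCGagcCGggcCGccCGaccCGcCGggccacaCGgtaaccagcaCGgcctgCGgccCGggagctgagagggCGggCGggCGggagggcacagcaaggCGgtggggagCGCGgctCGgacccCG
Kat5: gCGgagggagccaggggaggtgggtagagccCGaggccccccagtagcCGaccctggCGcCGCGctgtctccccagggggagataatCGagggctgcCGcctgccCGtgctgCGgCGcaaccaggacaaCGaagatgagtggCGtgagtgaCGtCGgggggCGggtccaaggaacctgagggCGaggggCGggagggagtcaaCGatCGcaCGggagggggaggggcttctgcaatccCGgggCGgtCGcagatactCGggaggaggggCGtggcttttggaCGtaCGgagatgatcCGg
Pirb: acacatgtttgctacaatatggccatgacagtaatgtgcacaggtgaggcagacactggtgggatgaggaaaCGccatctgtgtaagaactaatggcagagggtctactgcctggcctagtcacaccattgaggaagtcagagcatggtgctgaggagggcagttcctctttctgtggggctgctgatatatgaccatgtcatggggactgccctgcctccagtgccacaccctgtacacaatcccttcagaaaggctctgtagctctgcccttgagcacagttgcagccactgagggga

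The captured promoter of Gm42064 holds 34 CpGs, that of Eps8l1, an actin regulator gene, holds 14, and that of LOC115490388 holds 15. The promoters without a peak span 47 CpGs (Dnmt3a), 29 (Kat5) and 1 (Pirb), so a high CpG count was found on both sides. At Gm42064 the score of the overlapping peak was 1232, 714 and 435 in transgenic replicates 1, 2 and 3 and 267, 703 and 202 in wild-type replicates 1, 2 and 3. Scores are the authors' own, rank peaks within a list and are not scaled between lists. At Eps8l1 they were 301, 133 and 130 in transgenic and 94.6, 234 and 86.4 in wild-type libraries, and the groups overlapped at both promoters. At LOC115490388 the lowest was 53.8, in wild-type replicate 3, close to the lowest score of 50 that any list holds.

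Peaks were a little denser, wider and stronger at the ends than in the rest of the same chromosomes in every library. The ends held 49.4, 48.0 and 34.0 peaks per Mb in transgenic replicates 1, 2 and 3 and 26.2, 47.1 and 14.7 in wild-type replicates 1, 2 and 3. The number expected was taken from the density of the rest of each chromosome. The observed number was 1.02, 1.03 and 1.09 times the expected one in the transgenic lists and 1.10, 1.06 and 1.25 times in the wild-type lists. All 6 ratios exceeded 1, the mean log2 ratio was 0.13 ± 0.10 (SD, n = 6), and a two-sided exact permutation test that flips the signs of the 6 values gave p = 0.031, the smallest it can give. All libraries share the same windows, so this test, here and below, measures agreement between animals. It cannot tell whether the ends differ from other windows. Of single 3 Mb tiles over all autosomes, 67.2% lay on the same side of their rest in all 6 libraries. The density excess at the ends rested on chromosome 19, without which the mean log2 ratio was 0.06 (exact permutation p = 0.21875). The median over the 19 chromosomes was also smaller, with a mean log2 ratio of 0.05 (exact permutation p = 0.5625).

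Median peak width was 477, 419 and 398 bp at the transgenic ends against 456, 396 and 382 bp in the rest. In the wild-type lists it was 392, 436 and 202 bp at the ends against 373, 420 and 196 bp. The ends were the wider in 6 of 6 libraries, with a mean log2 ratio of 0.06 ± 0.01 (SD, n = 6; exact permutation p = 0.031). The tail of wide peaks differed more than the median. In the transgenic lists, peaks of 1000 bp or more made up 6.29%, 4.90% and 3.97% of end peaks. In the rest they made up 4.43%, 2.99% and 2.87%. The wild-type shares were 3.95%, 5.40% and 1.44% against 2.55%, 3.58% and 0.0980%. Wild-type replicate 3, with the widest relative gap, held only 836 end peaks. Median scores were 143, 116 and 101 at the transgenic ends against 124, 101 and 90.2 in the rest. The wild-type values were 78.4, 114 and 71.5 against 74.7, 101 and 70.5. The mean log2 score ratio was 0.14 ± 0.08 (SD, n = 6), higher in 6 of 6 libraries (exact permutation p = 0.031).

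**Figure D1:**
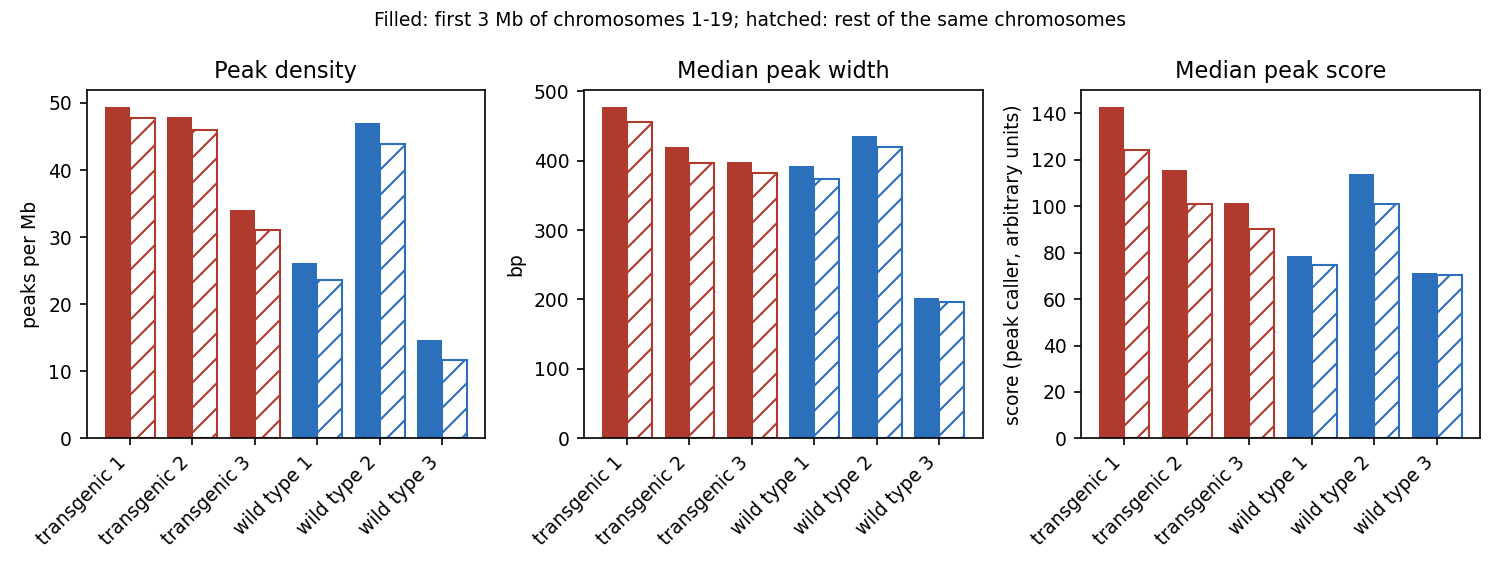
Peak density (peaks per Mb), median peak width (bp) and median peak score of each library, with filled bars for the centromere-side ends and hatched bars for the rest of the same chromosomes, transgenic in red and wild type in blue. The filled bar is the taller in each of the 6 libraries and all 3 panels, and for density the relative gap is widest in wild-type replicate 3 (14.7 against 11.7 peaks per Mb).

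Among the strongest peaks the excess at the ends was larger and nearly the same in all libraries. When the 30640 top-scoring peaks of each list were used, which gives each list the length of the shortest, the ends held 1.28, 1.31 and 1.31 times the expected number in the transgenic lists. In the wild-type lists the ratios were 1.23, 1.29 and 1.25. The mean log2 ratio over the 6 libraries was 0.35 (exact permutation p = 0.031), and it was 0.30 without chromosome 19 (exact permutation p = 0.031). The lead of wild-type replicate 3 in the full lists was thus absent at equal list length, where its ratio was the second lowest of the 6. At equal list length the median width and score no longer differed past the threshold, with mean log2 ratios of 0.01 (exact permutation p = 0.25) and -0.0025 (exact permutation p = 0.65625). Peaks were picked by score here, so this cut cannot show whether scores differ between the ends and the rest of the full lists.

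Transgenic and wild-type mice did not differ in this excess beyond the spread between animals. The mean log2 density ratio was 0.07 ± 0.05 (SD, n = 3) in transgenic and 0.18 ± 0.12 (SD, n = 3) in wild-type mice. The difference of -0.11 gave p = 0.20 by exact permutation (two-sided), which cannot go below 0.10 with 3 against 3. It was -0.05 without wild-type replicate 3, the shortest list, and it turned to 0.05 at equal list length (exact permutation p = 0.20). The log2 score ratio was 0.19 ± 0.02 in transgenic and 0.09 ± 0.08 in wild-type mice (SD, n = 3 each; exact permutation p = 0.20), and the 2 longest lists had the highest score ratios. For width the difference was 0.01 (exact permutation p = 0.40).

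The excess was highest next to the centromere and faded over a few Mb. In the first Mb of assembled sequence, density was 1.18 ± 0.15 times that of the rest (SD, n = 6), with values from 1.04 in transgenic replicate 1 to 1.47 in wild-type replicate 3. It was 1.08 ± 0.03 times in the second Mb and 1.03 ± 0.07 in the third, where the libraries lay on both sides of 1. Beyond the window it was 0.99, 0.94 and 1.06 times in the next 3 bins of 1 Mb, and 0.81, 0.80 and 0.88 in the 3 bins after those. Against the next 3 Mb alone the ends were 1.10-fold denser, in 6 of 6 libraries (exact permutation p = 0.031). The bins are of neighbouring sequence on the same 19 chromosomes and share their libraries. They were not computed by chromosome, without chromosome 19 or at equal list length.

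**Figure D2:**
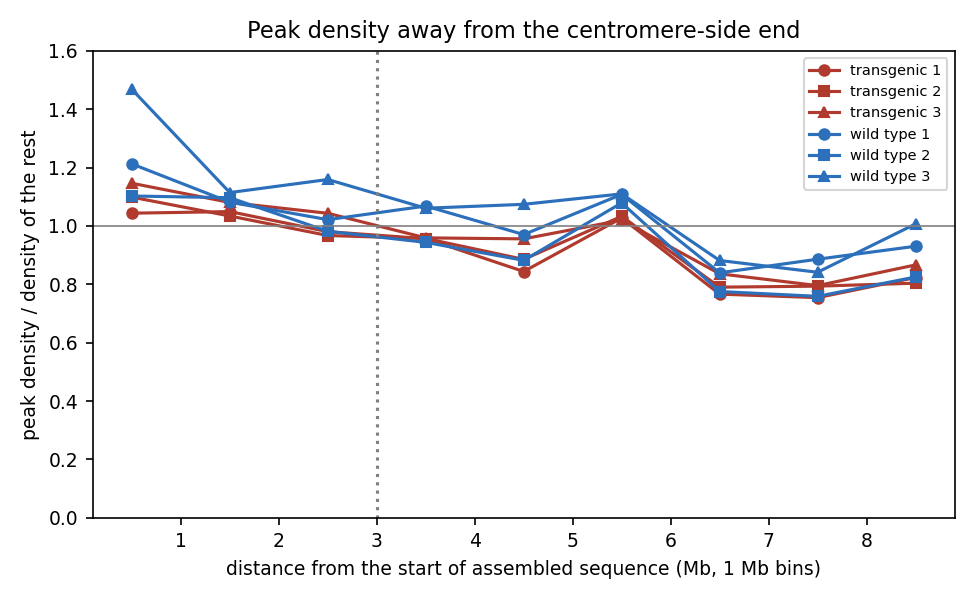
Peak density in bins of 1 Mb, summed over the 19 autosomes and divided by the density expected from the rest of the chromosomes, against distance from the start of assembled sequence (Mb). Each line is 1 library, transgenic in red and wild type in blue, and the dotted line marks the boundary of the window. All 6 lines lie above 1 in the first bin (1.04 to 1.47) and 5 of 6 lie below it in the last bin shown.

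The opposite, telomere-side ends had about as many peaks, but weaker and narrower ones. The last 3 Mb of the same chromosomes held 53.0, 50.2 and 34.8 peaks per Mb in transgenic and 27.0, 49.2 and 12.4 in wild-type libraries. The centromere-side ends were lower than these in 5 libraries and higher in wild-type replicate 3, and the mean log2 ratio was -0.01 ± 0.13 (SD, n = 6; exact permutation p = 0.875). At equal list length the centromere-side ends were ahead in all 6 libraries, with a mean log2 ratio of 0.24 (exact permutation p = 0.031). In the full lists the median score was 1.10 times and the median width 1.03 times that of the opposite ends, each higher in 6 of 6 libraries (exact permutation p = 0.031 for both).

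The 19 ends were far from alike. The mean log2 density ratio ran from 0.91 on chromosome 19 to -0.74 on chromosome 14. In 6 ends (chromosomes 2, 6, 7, 11, 16 and 19) all 6 libraries lay above the rest of the chromosome, and in 4 ends (chromosomes 5, 10, 14 and 17) all lay below it. Such one-sided windows were common: of 792 tiles of 3 Mb over all autosomes, 26.1% were above in all 6 libraries and 41% below, and the 6 ends above are near that background. By mean ratio, 15 of the 19 ends ranked above the median tile of their chromosome. With Benjamini-Hochberg adjustment over 19 chromosomes 0 ends passed 0.05 in either direction (0%), and 10 had an unadjusted exact permutation p of 0.031, for which the smallest adjusted p was 0.0594. Among the top-scoring 30640 peaks per list, 11 ends passed as higher and 1, that of chromosome 10, as lower (adjusted exact permutation p = 0.0495), beside 24.7% of tiles above and 37.5% below in all 6 libraries. With 6 libraries, at least 12 one-sided ends are needed for any to pass. The strongest excess there was on chromosomes 19 (2.13-fold), 7 (1.63-fold), 8 (1.59-fold) and 11 (1.54-fold).

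Chromosome 19 had the highest density ratio. It held 94.3, 89.3 and 61.0 peaks per Mb in transgenic and 44.7, 90.3 and 25.3 in wild-type libraries, against 53.2, 50.04 and 33.0 and 24.0, 48.7 and 11.2 in its rest. All 6 libraries were higher at the end, by 1.88-fold on average (mean log2 ratio 0.91 ± 0.13, SD, n = 6). This window is also the richest in genes, with 39.3 protein-coding genes per Mb against 10.6 in the rest of the chromosome. It was the first of the 19 tiles of 3 Mb of that chromosome by peak density.

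Chromosomes 7 and 11 followed, with mean log2 ratios of 0.48 ± 0.11 and 0.47 ± 0.13 (SD, n = 6 each). The end of chromosome 7 held 63.0, 65.0 and 46.7 peaks per Mb in transgenic and 38.0, 66.0 and 20.3 in wild-type libraries, against 50.2, 48.9 and 33.8 and 25.6, 46.9 and 13.1 in its rest. Chromosome 11 held 77.7, 66.3 and 46.3 and 38.0, 64.3 and 18.0 peaks per Mb at its end, against 55.1, 51.4 and 34.2 and 25.5, 51.7 and 11.4 in its rest. Both ends are gene-rich (30.0 and 23.3 protein-coding genes per Mb), and that of chromosome 14, the sparsest in peaks in the full lists, held 15.3. A part of gene density in these peak densities was not tested. Over the 19 ends, the ratios to the rest of peak density and of gene density correlated at 0.24 (Pearson) and 0.30 (Spearman). On chromosomes 7 and 19 the 3 transgenic ratios were all below the 3 wild-type ratios, each with the smallest possible exact permutation p of 0.10. These were 2 of 19 ends, beside 2.53% of all tiles, and in the full lists the reverse was found at 0 ends, beside 4.55% of all tiles. At equal list length the groups overlapped on both chromosomes and the transgenic mean was the higher one, at 0.72 against 0.69 on chromosome 7 and 1.17 against 1.01 on chromosome 19. There the transgenic ratios were all lower on chromosome 16 (1 of 19 ends, beside 5.68% of tiles) and all higher on chromosomes 5, 9 and 14 (3 of 19 ends, beside 7.45% of tiles). The transgenic mean was the lower one at 16 of 19 ends in the full lists and at 7 at equal list length.

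In the full lists chromosome 14 had the lowest density ratio and the highest score ratio. It held 20.0, 18.3 and 16.7 peaks per Mb in transgenic and 14.3, 20.7 and 8.33 in wild-type libraries, against 39.7, 38.7 and 26.3 and 21.1, 37.0 and 10.6 in its rest. Its median score was 321, 232 and 168 at the transgenic ends against 134, 107 and 97.0 in the rest, and 103, 192 and 72.9 against 77.0, 106 and 71.6 in the wild-type lists. The score was thus 1.68-fold higher on average, in 6 of 6 libraries, while the density was 0.60-fold (mean log2 ratio -0.74 ± 0.28, SD, n = 6). At equal list length the density was 1.05-fold, above the rest in 4 of 6 libraries (exact permutation p = 0.50), and the lowest ratio was that of chromosome 10. This window held 15.3 protein-coding genes per Mb against 6.78 in the rest of the chromosome. Of its 120 RefSeq genes 41 are pseudogenes.

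Chromosomes 1 and 10 were next lowest in the full lists. Chromosome 1 had a mean log2 density ratio of -0.30 ± 0.18 (SD, n = 6), below its rest in 5 libraries and above it in wild-type replicate 3, and its median score was 1.29-fold higher in 6 of 6 libraries. At equal list length it was 1.07-fold, above its rest in 4 of 6 libraries (exact permutation p = 0.1875). In the full lists its end held 29.7, 30.7 and 22.7 peaks per Mb in transgenic and 16.3, 30.3 and 11.7 in wild-type libraries. Chromosome 10 had a mean log2 density ratio of -0.25 ± 0.08 (SD, n = 6), 0.81-fold at equal list length, and its score ratio was not one-sided, at 0.95-fold with 4 of 6 libraries lower. That end held 44.3, 43.0 and 25.7 peaks per Mb in transgenic and 20.0, 42.0 and 10.3 in wild-type libraries. Over all chromosomes the score was higher in all 6 libraries at 5 ends (chromosomes 1, 4, 7, 13 and 14) and lower in all 6 at 0 ends, beside 26.9% and 21.7% of all tiles of 3 Mb. The width was higher in all 6 at 6 ends and lower at 1, beside 19.3% and 18.1% of tiles. The counts of higher ends are near the tile shares for score and above them for width, which was not tested. None of these passed adjustment over the 19 chromosomes (smallest adjusted exact permutation p = 0.108 for score).

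**Figure D3:**
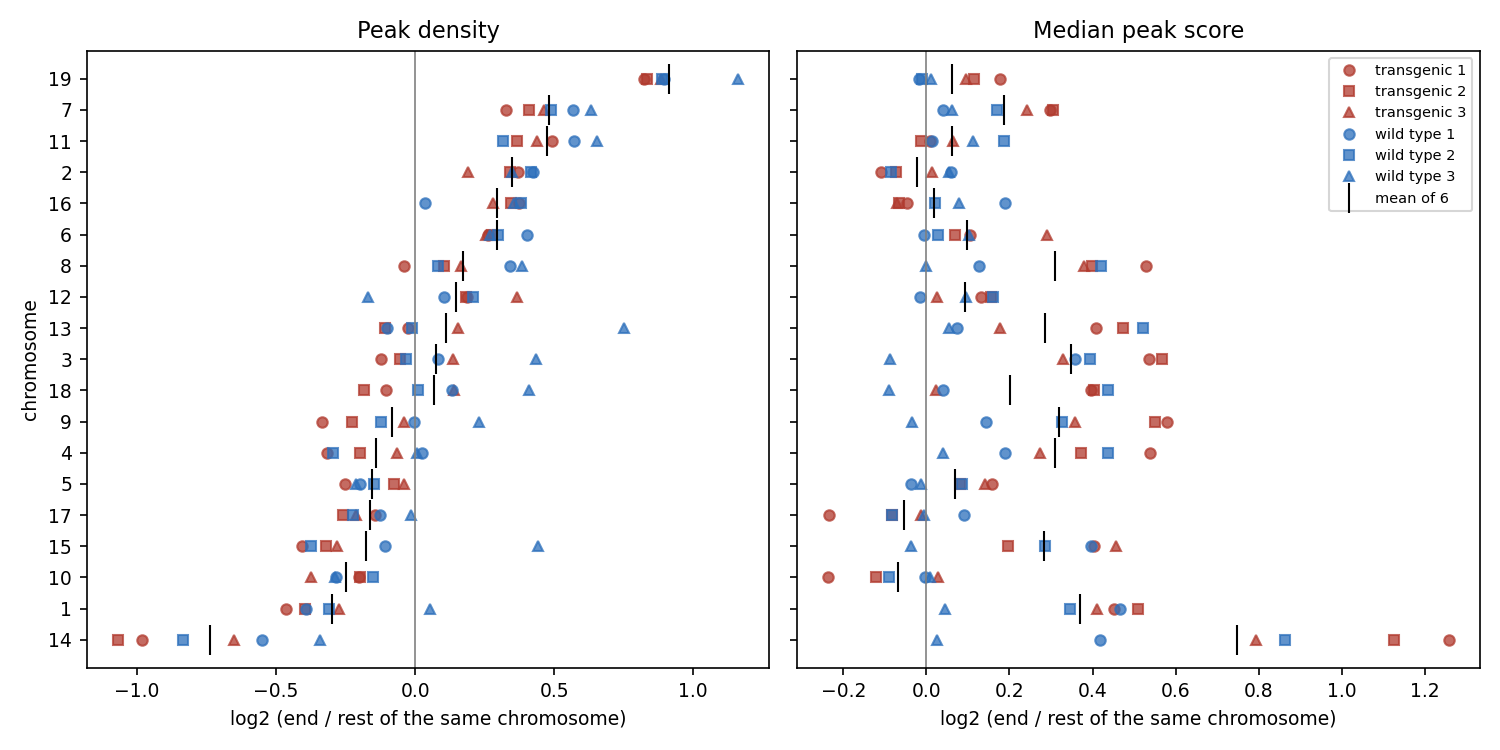
Log2 ratio, in the full lists, of peak density (left) and of median peak score (right) between the centromere-side end and the rest of each chromosome, ordered by mean density ratio. Symbols are libraries (transgenic red, wild type blue), black bars are means of 6, and the zero line marks equality. Chromosome 19 leads for density (0.91) and chromosome 14 is lowest for density (-0.74) and highest for score (0.75).

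The excess of the ends was larger outside protein-coding genes than within them. The ends are rich in genes, with 711 protein-coding genes or 12.5 per Mb against 8.50 per Mb in the rest, but these genes are short (median length 13312 bp against 17676 bp) and their spans cover 39.4% of the ends and 40.9% of the rest. Outside gene spans the ends held 43.4, 43.8 and 32.4 peaks per Mb in the transgenic lists against 37.8, 37.1 and 26.0 in the rest. In the wild-type lists they held 25.1, 42.6 and 15.4 against 20.3, 35.8 and 11.1.

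The outside density was 1.23-fold higher at the ends on average, from 1.15-fold in transgenic replicate 1 to 1.39-fold in wild-type replicate 3 (mean log2 ratio 0.30, 6 of 6 libraries, exact permutation p = 0.031). Inside gene spans the ratio was 0.97-fold on average, below 1 in 5 libraries and 1.07 in wild-type replicate 3 (exact permutation p = 0.25). At equal list length the inside ratio was 1.12-fold, above 1 in 6 of 6 libraries (1.07 to 1.18; exact permutation p = 0.031). In the full lists the difference between outside and inside was 0.34 on the log2 scale, and at equal list length it was 0.32, in 6 of 6 libraries each (exact permutation p = 0.031 for both). The outside excess remained at a mean log2 ratio of 0.29 without chromosome 19 (exact permutation p = 0.031) and was 0.48 at equal list length (exact permutation p = 0.031). By chromosome, the outside density was higher in all 6 libraries at 12 ends and lower in all 6 at 1 end, that of chromosome 17, beside 22.1% and 29.5% of all tiles of 3 Mb. The density inside and outside genes was compared after the other values had been seen. Its ratios over all ends come from densities pooled over the 19 chromosomes, unlike the ratios to expected numbers above.

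**Figure D4:**
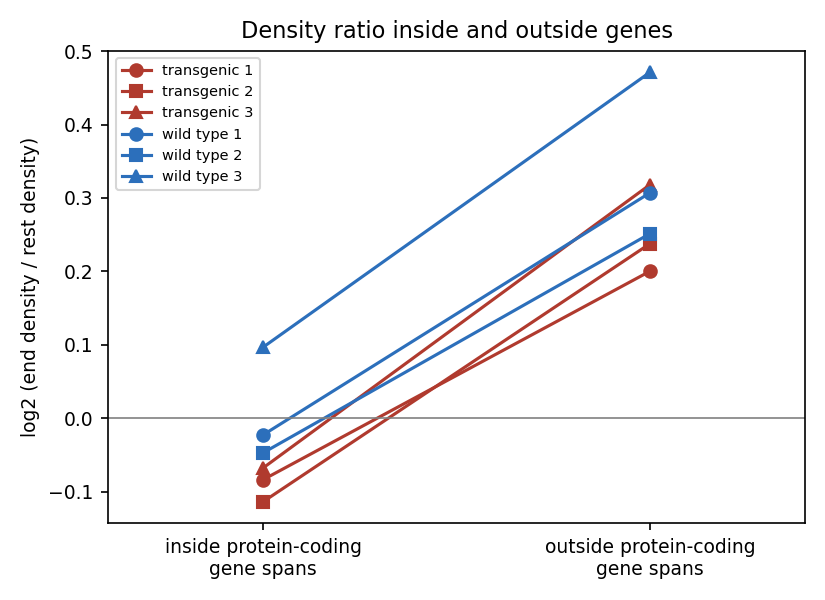
Log2 ratio, in the full lists, of peak density between the centromere-side ends and the rest of the autosomes, for peaks inside and outside the spans of protein-coding genes. Each line joins the values of 1 library (transgenic red, wild type blue). All 6 lines rise, from between -0.11 and 0.10 inside genes to between 0.20 and 0.47 outside.

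In the full lists, the share of protein-coding genes with a peak was lower at the ends than elsewhere. The same held for promoters with fewer than 15 CpGs, but not for those with 15 or more. A peak lay within 56.1%, 55.3% and 46.7% of the protein-coding genes of the ends in the transgenic lists, against 68.1%, 67.0% and 59.2% of other genes. In the wild-type lists the shares were 39.9%, 54.9% and 24.5% against 52.2%, 66.2% and 31.9%. The shares were lower at the ends in 6 of 6 libraries, by 11.2 percentage points on average (exact permutation p = 0.031). Gene length differs between the ends and the rest, as given above, and its part in this was not tested. Shares of genes and promoters with a peak were not computed at equal list length.

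Among promoters with fewer than 15 CpGs in 300 bases, the share with a peak was 5.01%, 3.71% and 2.04% in the transgenic and 1.11%, 3.34% and 0.186% in the wild-type lists. Elsewhere it was 6.54%, 5.46% and 3.53% and 2.32%, 5.76% and 0.611%. The ends were lower by 1.47 percentage points on average, in 6 of 6 libraries (exact permutation p = 0.031). For promoters with 15 or more CpGs the ends and the rest were close, at 3.00% and 2.95% in transgenic replicate 1 and 0.901% and 0.794% in wild-type replicate 3, with a mean difference of -0.0078 percentage points (exact permutation p = 0.9375). Of the 333 such promoters in the ends, 323 had a peak in no list (97.0%, against 96.6% elsewhere), as those of Dnmt3a and Kat5 printed above.

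The regions of the ends were found again from animal to animal somewhat more often. Of 3759 merged regions, 498 (13.2%) had a peak in all 6 lists, against 10.5% of the 154318 regions in the rest of the autosomes, a difference that was not tested. A peak in 1 list only was found for 26.0% and 28.6%. Regions called in each transgenic but no wild-type library numbered 47 (1.25%), against 1.8% of all regions and 1.86% in the rest of the autosomes. The reverse held for 1 region (0.0266%), against 0.0145% and 0.0149%. The strongest of the recurrent regions are described next, chosen by the highest lowest score over the 6 lists.

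The first was a region of 585 bp on chromosome 12 (3109641 to 3110225), which had a score of 3100 in all 6 lists, also the highest score of any autosomal peak in 5 of the 6 lists, so differences between libraries cannot be read from it. It lies outside annotated genes, 137203 bp from Rab10, a vesicle transport GTPase gene. A region on chromosome 4 (3089215 to 3091405) had scores of 1900, 2132 and 1868 in transgenic and 1418, 1916 and 1618 in wild-type libraries, which overlapped between groups. It lies 80678 bp from Vmn1r2, a pheromone receptor gene.

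By score, chromosome 11 held 5 of the 10 strongest recurrent regions. Repeats and copy number of these regions were not examined, and a score does not measure the level of methylation. Within Sfi1, a gene of a centrosome protein, a region from 3191720 to 3195321 had scores of 3100, 1912 and 2905 in transgenic and 1672, 2229 and 1299 in wild-type libraries. Another in the same gene (3149290 to 3153967) had scores of 1099, 862 and 2095 and 587, 896 and 831. A region 26107 bp from Sfi1 (3100219 to 3105743) had a lowest score of 551. The 2 others on this chromosome lay 15207 bp from Emid1 (5167529 to 5170701, lowest score 584) and inside Osbp2, an oxysterol-binding protein gene (3824400 to 3825451, lowest score 271). The remaining 3 lay on chromosome 6 (3200586 to 3201756, lowest score 521), 2075 bp from the gene LOC115490388 whose promoter is printed above, on chromosome 18 (3005062 to 3006085, lowest score 406) and on chromosome 19 near Gstp3, a glutathione transferase gene (4064901 to 4066156, lowest score 246). The highest score of transgenic replicate 1 lay inside Ccdc3 on chromosome 2 (5225646 to 5226792), with 3194, 1665 and 839 in transgenic and 458, 1095 and 223 in wild-type libraries.

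Between genotypes, the authors' deposited table of 407 differential regions placed 15 in the ends, 11 of them higher and 4 lower in the transgenic mice. Of the 2235 regions of the ends with a peak in 3 or more lists, which match the number the table tested over the genome (92205), the higher ones made up 0.492% and the lower ones 0.179%. Over all such regions the shares in the authors' deposited table were 0.33% and 0.112%, and over those in the rest of the autosomes 0.301% and 0.0968%. These differences in share were not tested. The median log2 fold of the higher regions in the ends was 0.62, against 0.63 for all higher regions of the authors' deposited table, and that of the lower ones was -1.56 against -1.60. Of the 15 regions, 0 overlapped a CpG island in the authors' annotation, and the share over all 407 was not computed.

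The 11 higher regions spanned 915 to 2254 bp, with wild-type group concentrations from 5.22 to 7.29 (log2) in the authors' deposited table. A peak was found in all 6 lists at 9 of them and in 5 lists at 2. At those 2, inside Plcxd3 and Syne1, wild-type replicate 3 had no peak. Elsewhere its scores ran from 57.3 (inside Gm37323), near the lowest score of 50, to 191 (inside Esr1). The log2 folds of the 11 regions in the authors' deposited table lay between 0.44 and 0.73. Transgenic replicate 1, the longest list, had the highest score at all 11, and at 9 the scores overlapped between the groups. These counts were not taken over all 304 higher regions, so they cannot be read as particular to the ends. Scores are not scaled for depth, and no source used here states how the concentrations were scaled.

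The region with the smallest FDR among these lay on chromosome 13 (4981778 to 4984031), 372614 bp from the nearest protein-coding gene (Akr1e1), with a log2 fold of 0.44 (FDR 0.00818) in the authors' deposited table. Its scores were 1418, 993 and 560 in transgenic and 278, 595 and 64.1 in wild-type libraries, so that wild-type replicate 2 exceeded transgenic replicate 3. On chromosome 7 a pair of higher regions fell on either side of Pira2 (3836808 to 3845104), and Pirb ends before both, at position 3720382. Pirb and Pira2 are genes of paired immunoglobulin-like receptors, which tune the activation of myeloid and B cells. The nearest protein-coding genes were Gm15448, at 26620 bp from the first region, and Gm14548, which holds the second. One lay inside Gm15925 (3789016 to 3790043; log2 fold 0.66, FDR 0.00957) and one inside Gm14548 (3886799 to 3888098; log2 fold 0.59, FDR 0.0206) in the authors' deposited table. The Gm15925 region had scores of 1107, 944 and 513 in transgenic and 250, 455 and 176 in wild-type libraries, which did not overlap.

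On chromosome 10 a higher region lay inside Esr1, the estrogen receptor alpha gene (4911207 to 4912647; log2 fold 0.67, FDR 0.031), and one inside Syne1, a gene of a nuclear envelope protein (5089623 to 5090758; log2 fold 0.51, FDR 0.0742) in the authors' deposited table. On chromosome 15 one lay inside Plcxd3 (4419657 to 4420874; log2 fold 0.68, FDR 0.0325) and one inside Gm46496 (5368921 to 5369997; log2 fold 0.62, FDR 0.0307) in the authors' deposited table. The largest rise in the ends was inside Gm45957 on chromosome 9 (4182318 to 4183232), at a log2 fold of 0.73 (1.66-fold, FDR 0.0122) in the authors' deposited table. On chromosome 1 a region inside Gm37323, 61980 bp from Sox17, an endoderm factor gene, had a log2 fold of 0.56 (4559406 to 4561135, FDR 0.0463) in the authors' deposited table. For chromosome 18 the authors' deposited table lists a region at 3030945 to 3031954 with a log2 fold of 0.72 (FDR 0.0616) and one at 4021643 to 4023597 with 0.44 (FDR 0.0290).

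The 4 lower regions had wild-type concentrations of 4.61 to 5.59 (log2) in the authors' deposited table, which overlap those of the higher regions at their lower end, and larger folds. The largest fall was at 5709134 to 5709331 on chromosome 16, 175462 bp from Rbfox1, a splicing regulator gene, with a log2 fold of -2.52 (FDR 0.0761) in the authors' deposited table. Its scores were 191, 179 and 347 in the wild-type lists, and of the transgenic lists only replicate 2 had a peak (135). A region inside Ppp1r9a, the neurabin gene of the imprinted Peg10 domain on chromosome 6 (4923775 to 4924493), had a log2 fold of -2.10 (FDR 0.0643) in the authors' deposited table. It had a peak in all 3 wild-type lists (94.4, 187 and 164) and in transgenic replicate 3 alone (73.7).

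The other lower regions were also on chromosome 16, near the olfactory receptor gene Olfr15 (3822289 to 3823190; log2 fold -1.02, FDR 0.0742) and inside Srl, the sarcalumenin gene (4482768 to 4483414; log2 fold -0.89, FDR 0.0703) in the authors' deposited table. At Srl all 3 transgenic lists had a peak (240, 128 and 161), and of the wild-type lists replicates 1 and 2 (150 and 320). At Olfr15 the scores were 86.7 and 127 in transgenic replicates 1 and 2 and 133, 175 and 76.0 in the wild-type lists. With an FDR limit of 0.05, 9 of the 11 higher and 0 of the 4 lower regions would pass by the authors' deposited table. The shares that pass among all 304 higher and 103 lower regions were not computed, so this contrast cannot be read as particular to the ends.

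**Figure D5:**
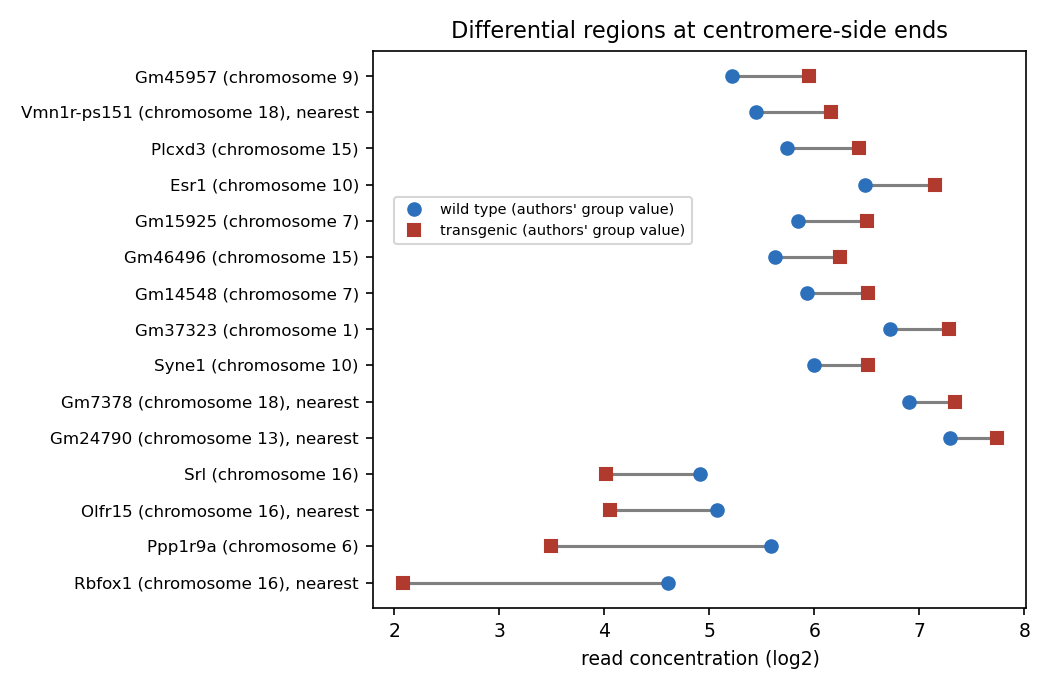
Read concentration (log2, the authors' deposited values) of the 15 differential regions of the centromere-side ends in wild-type (blue circles) and transgenic mice (red squares), named by the overlapping or nearest RefSeq gene. The 11 higher regions shift by 0.44 to 0.73, and the 4 lower ones, of which 3 are on chromosome 16, by -0.89 to -2.52.

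Gene groups located in the ends differed in how many members had a peak anywhere in the gene. Of all 711 protein-coding genes of the ends, 21.2% had one in all 6 lists and 38.1% in none. The groups are lists of named genes chosen because they were thought to lie there, and they are described by counts alone.

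Of the 7 genes of the imprinted domain on chromosome 6 and its neighbours, 4 had a peak in all 6 lists and 0 had none. Peg10, a retrotransposon-derived gene needed for the placenta, had 3, 4 and 3 peaks in transgenic and 3, 4 and 1 in wild-type libraries. Ppp1r9a had 24, 18 and 12 and 10, 16 and 4 over its 262790 bp, Calcr, the calcitonin receptor gene, 3, 4 and 4 and 4, 4 and 2, and Asb4 2 or 3 in every list. Sgce, the sarcoglycan gene that shares its start region with Peg10, had peaks in 5 lists and none in wild-type replicate 3.

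Of 7 genes of DNA methylation and chromatin enzymes in the ends (of 9 listed), 5 had a peak in all 6 lists. Dnmt3a had 11, 7 and 6 peaks in transgenic and 4, 12 and 1 in wild-type libraries, with groups that overlapped, and none of them touched its 3 promoters. Kmt5b and Kmt5c, which methylate histone H4 in heterochromatin, had peaks in 6 and 4 lists. Suv39h2, which methylates histone H3 at pericentromeric heterochromatin, had 1 peak in wild-type replicate 1 alone. Crebbp, a histone acetyltransferase gene, had a peak in every list, with scores from 50.7 to 88.4.

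Of 10 developmental and lineage factor genes, 4 had a peak in all 6 lists and 3 (Sox17, Hnf4g and Klf6) in none. Among those with peaks, Zfhx4 had 2, 5 and 2 in transgenic and 2, 3 and 1 in wild-type libraries. Zeb1, an epithelial-mesenchymal transition factor gene on chromosome 18, had highest scores of 1366, 852 and 566 in transgenic and 303, 686 and 72.9 in wild-type libraries. Of 11 innate immune genes 9 had a peak in no list, among them Pirb, Pira2, the natural killer receptor gene Ncr1 and the inflammatory caspase gene Casp1. Lilra5 had 1 peak in each of 5 lists. Many of these genes are short, such as Pirb with 7878 bp, and differ in this from Ppp1r9a above.

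Of 10 growth and tumour genes in the ends (of 11 listed), 4 had a peak in all 6 lists and 2 in none. Cdk6, a cell-cycle kinase gene, had 10, 10 and 10 peaks in transgenic and 6, 11 and 3 in wild-type libraries, and the groups overlapped. Nf2, the merlin tumour suppressor gene, had 1 or 2 peaks in 5 lists and none in wild-type replicate 3. The cytokine genes Lif and Osm had peaks in 6 and 5 lists, and the kinase gene Lyn in 4. Of the listed genes, Ppp1r9a and Esr1 overlap a region of the authors' deposited table.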

How the data were processed

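MBD-seq was done on lung DNA of 3 transgenic and 3 wild-type mice, with methylated DNA captured by a commercial kit, per the labels' protocols. Reads were aligned to mm10, and Bowtie, DiffBind and edgeR are named without versions, per the submitters' processing notes. Each deposited list gives a score per peak, set by the authors' caller and unscaled between libraries. Peaks were called per library, and their names are those MACS writes, per the deposited lists. The concentrations and folds of the authors' deposited table are on a log2 scale, and its p-value and FDR are the authors' own. Of the authors' deposited annotation, whose values are distances in bp, only the relation to CpG islands was used, and printed distances were computed to RefSeq genes.

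From these lists, expected peak numbers were computed per chromosome from the density beyond 6 Mb, taking the last peak end as the chromosome's end. The ratios inside and outside genes over all ends were instead taken from densities pooled over the 19 chromosomes. A pseudocount of 0.5 peaks entered single-chromosome ratios. Tests were two-sided exact permutation tests over libraries: all 64 sign patterns for end against rest, and 3 against 3 for genotypes, as the labels give biological replicates. The sign patterns test agreement between libraries at the same windows, not ends against other windows. The test over chromosomes was checked on simulated data, where 14 of 14 ends planted at 2-fold among 19 chromosomes were recovered with 0 false calls. Since fewer than 12 one-sided ends cannot pass, this check says nothing of fewer changed ends. Its unchanged ends were drawn independently per library at the density of their rest. Of real 3 Mb tiles, 67.2% were one-sided in all 6 libraries, so its 0 false calls do not carry over to these lists. Starts are printed 1-based, and the 407 regions of the authors' table equal merged regions. Gene spans and promoters are RefSeq's on GRCm38.p6, and a gene belongs to the end by its midpoint in counts of all genes, by overlap in gene groups. Named were all differential regions of the ends, the 10 recurrent regions with the highest lowest score, the top region of each library, the 3 densest and 3 sparsest ends, and up to 5 genes per group. The ends and the lists of genes were chosen with earlier results of these data known. CpG content of peaks was not computed, because no genome was used here. Python 3.11.15, numpy 2.4.6, pandas 2.3.3 and scipy 1.17.1 were used.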

Additional observations from a re-analysis of the deposited data

Results flagged for a closer look

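On chromosome 16 the median peak score of the end was below that of the rest in all 3 transgenic lists (log2 ratios -0.05, -0.06 and -0.07) and above it in all 3 wild-type lists (0.19, 0.02 and 0.08). The difference of the group means, transgenic minus wild type, was -0.16. It was the only such case among the density, score and width ratios of the 19 chromosomes, and the difference was not tested. The share of all 3 Mb tiles that split in this way by score was not computed, so the case cannot be read as particular to this end. Score ratios by chromosome were not taken at equal list length. In transgenic replicates 1, 2 and 3 the median scores were 129, 103 and 92.7 at the end against 133, 107 and 97.3 in the rest, and in wild-type replicates 1, 2 and 3 they were 87.0, 109 and 73.9 against 76.3, 107 and 70.0.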

How the results depend on the processing

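The density excess of the ends (mean log2 ratio 0.13) kept its direction under every alternative run. It missed the threshold with the median over chromosomes (0.0546), without chromosome 19 (0.0623) and with a boundary at 9 Mb (0.0621), and was 0.31 for peaks with a score of 100 or more, 0.26 by covered base pairs and 0.17 with a boundary at 5 Mb. Leaving out 1 library left values from 0.0869 (without wild-type replicate 3) to 0.14, where 5 libraries cannot go below an exact permutation p of 0.0625. The width ratio was 0.0116 at equal list length and 0.0399 for scores of 100 or more, both no longer past the threshold, and 0.0579 to 0.0662 without any 1 library. The score ratio turned to -0.0025 at equal list length, where peaks had been picked by that score, and was 0.13 to 0.16 without any 1 library.

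The difference between genotypes turned to 0.0487 at equal list length and, with 1 library left out, ran from -0.16 to -0.0455 (without wild-type replicate 3). The replicate numbers are not stated to pair animals, and deviations of same-numbered libraries correlated at -0.08, 0.43 and 0.44 over chromosomes. Transgenic replicate 1 correlated best with wild-type replicate 2 (0.37). With the replicate number as a block the difference was -0.11 (exact permutation p = 0.25, the smallest this pairing allows). Against the opposite ends the density ratio turned from -0.01 to 0.24 at equal list length and 0.20 for scores of 100 or more, and was -0.0613 (without wild-type replicate 3) to 0.0071 (without transgenic replicate 1). The count of ends that passed was 0 in the full lists, 12 at equal list length, 12 for scores of 100 or more and 14 (10 higher, 4 lower) with a boundary at 5 Mb. It was also 0 with a boundary at 9 Mb and 0 without peaks below 3.1 Mb. Without any 1 library it was 0, where none can pass. The inside ratio turned from -0.04 to 0.16 at equal list length, an alternative chosen after seeing the data, and was -0.0669 (without wild-type replicate 3) to -0.0248 without any 1 library. The excess outside genes was 0.26 to 0.32 without any 1 library and 0.32 with all RefSeq genes. At an FDR of at most 0.05 the lower differential regions went from 4 to 0. Read depth is unknown, and sequence below 3 Mb was not analysed here. The causes of these shifts were not tested.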
